A study of Mus musculus with 15 samples.

Results

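Tumour necrosis factor (TNF) receptors and their ligands were followed in embryonic-stem-cell-derived microglia (ESdM), mouse brain immune cells modelled in culture. The members were taken by gene symbol from a list of 7 genes, 5 receptors (Tnfrsf1a, Tnfrsf1b, Tnfrsf11a, Tnfrsf14 and Tnfrsf21) and 2 ligands (Tnfsf9 and Tnfsf10). The table held 11201 genes, among them 6 of the 7 listed. Tnfsf10 was not analysed here. All 6 members passed the filter on low values, which left 11138 genes to be tested.

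The RNA sequencing series had 15 libraries in 4 groups. All cells were ESdM generated from C57BL/6-ATCC embryonic stem cells and kept in N2 medium, and the labels name no genetic change. The untreated group had 6 libraries and no time label. Each stimulus had 3 libraries taken after 24 h. In one group the cells received LPS (lipopolysaccharide, from the bacterial cell wall) at 500 ng/ml with 20 ng/ml of IFNg (interferon gamma). The other groups received the cytokine IL4 (interleukin 4) at 100 U/ml or TGFb (transforming growth factor beta) at 50 ng/ml. Separate cultures are not stated in the labels for the libraries of a group, and the p-values therefore cover a spread between libraries that may be technical. Values are normalized read counts, meaning reads divided by 1 factor per library with a floor of 1, and means are given ± SD with n = 6 for untreated cells and n = 3 for each stimulus. Recovered reads ran from 2682564 to 18676181 per library with a median of 7589049.

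Receptors of this family bind trimeric ligands at the cell surface, and most of them act through TRAF adaptor proteins on the NF-kB and MAP kinase pathways. A subset, including the products of Tnfrsf1a and Tnfrsf21, carries a cytoplasmic death domain that can recruit caspase-8 or kinases of necroptosis. Tnfrsf1a encodes TNF receptor 1 and Tnfrsf1b TNF receptor 2, and both bind TNF and lymphotoxin alpha. Tnfrsf11a encodes RANK, the receptor that drives osteoclast formation from myeloid precursors. Tnfrsf14 encodes HVEM, which binds LIGHT (Tnfsf14), lymphotoxin alpha and BTLA. Tnfrsf21 encodes death receptor 6, and Tnfsf9 encodes the ligand of 4-1BB (Tnfrsf9), a co-stimulatory receptor.

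The cells carried general macrophage and microglia transcripts but little of some listed markers, both general ones and those of brain microglia. Of 12 marker genes 10 were in the table, with Csf1r at a mean of 2790 and Cd68 at 7854 in untreated cells, while Tmem119 stood at 7.62 and Cx3cr1 at 2.60. The general marker Aif1 was also low, at 24.8 in untreated cells beside 219 with LPS+IFNg. P2ry12 and Adgre1 were not in the table. The summed level of these markers ran from 18830 to 20029 in untreated cells, from 18116 to 20205 with LPS+IFNg, from 21162 to 21619 with IL4 and from 25228 to 26554 with TGFb. None of the marker genes listed for T and NK cells (0 of 7), B cells (0 of 4), neurons (0 of 5), fibroblasts (0 of 5) or undifferentiated stem cells (0 of 4) was in the table. Of the endothelial markers only Pecam1 was (1 of 4), at a mean of 1.34 in untreated cells and 11.1 with LPS+IFNg. In a bulk library fewer cells of a type and less RNA per cell cannot be told apart.

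The promoters of the receptor genes are shown first. Those of Tnfrsf1b and Tnfrsf14 hold a short interferon response element core, whose part in the levels of these genes was not tested. RefSeq promoter sequences (build GRCm38.p6) were matched for 5 of the 6 members, with no entry for Tnfsf9. The 250 bases upstream of each start were searched on both strands for 4 motifs, which were picked after these promoters had been read. They were GAAA, any 2 bases and GAAA again (interferon response core), TTCNNNGAA (STAT), GGG, any 2 bases and TTTCC (NF-kB), and CAGACA (SMAD). No match of one overlapped a match of another in these promoters. The share of all 27025 promoters holding each was 3.04%, 7.18%, 1.4% and 17.1% in that order. Tnfrsf1b is shown over the 250 bases up to its start (chr4:145246871-145247120, minus strand, GRCm38.p6), with the match of the interferon response core in capitals, which lies on the opposite strand and fills the last 10 bases.
Tnfrsf1b: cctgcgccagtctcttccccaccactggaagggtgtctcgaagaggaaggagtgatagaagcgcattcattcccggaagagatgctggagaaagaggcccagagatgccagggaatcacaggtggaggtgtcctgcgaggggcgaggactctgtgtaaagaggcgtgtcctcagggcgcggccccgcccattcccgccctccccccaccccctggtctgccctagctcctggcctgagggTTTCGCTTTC

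In Tnfrsf14 the same core lay 64 to 55 bases before the RefSeq start (chr4:154928122-154928151, minus strand). One of the GENCODE transcripts of Tnfrsf14 begins farther upstream and has this match in an exon. The stretch around it is set against the corresponding stretch of Tnfrsf1b, where the match lay 10 to 1 bases before the start (chr4:145246861-145246890, minus strand), with capitals marking the core.
Tnfrsf14: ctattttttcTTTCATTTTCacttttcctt
Tnfrsf1b: ggcctgagggTTTCGCTTTCagtcaccagc

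The STAT motif was found in both TNF receptor genes. It lay 181 to 173 bases before the start of Tnfrsf1b (chr4:145247033-145247061, minus strand) and 244 to 236 before that of Tnfrsf1a (chr6:125349473-125349497, plus strand), in an exon of 1 GENCODE transcript of Tnfrsf1a. Capitals mark the motif.
Tnfrsf1b: agcgcattcaTTCCCGGAAgagatgctgg
Tnfrsf1a: gcttccTTCCGTGAAattgacaaca
Tnfrsf14 also held CAGACA, 240 to 235 bases before its start. Tnfrsf11a and Tnfrsf21 held none of the 4 motifs in this window, and no receptor promoter held the NF-kB motif. A match is a description of these letters and not evidence of binding.

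The question of the comparisons was how the members' transcripts stood after 3 stimuli that drive microglia to different activation states. Differences were tested with limma on log2(value + 1) in 1 fit over all libraries, and a gene was called at a Benjamini-Hochberg adjusted p below 0.05 over all genes tested. Fold changes on that scale understate the change of genes with low values, and N-fold values are group mean over group mean. LPS+IFNg called 4 of the 6 members, 3 higher and 1 lower, where 58.9% of all genes tested were called, 29.5% higher and 29.4% lower. One of the 3 higher, Tnfrsf14, reached the filter's minimum only in the LPS+IFNg libraries and had to differ once tested, which also holds for the comparisons of LPS+IFNg with IL4 and TGFb below. TGFb also called 4, 3 higher and 1 lower, beside 47.5% of all genes (24.1% higher and 23.4% lower). IL4 called 2, both lower, beside 17.2% of all genes (9.89% higher and 7.33% lower). The libraries of the stimulus did not overlap the untreated ones for 4 members with LPS+IFNg, 4 with TGFb and 2 with IL4, beside 50.1%, 46.4% and 23% of all genes. The median log2 fold change of the members was 0.42 with LPS+IFNg, 0.03 with IL4 and 0.27 with TGFb, beside 0.004, 0.001 and 0.014 for all genes. The 3 comparisons share the untreated libraries. After rescaling every library to 1 total, 35.5% of all calls with LPS+IFNg, 33.9% with IL4 and 37.8% with TGFb were higher, in place of 50%, 57.4% and 50.8%. No called member changed direction or lost its call under that rescaling, which moved the median of all genes with LPS+IFNg to -0.121. Replicate 3 of LPS+IFNg lay apart from the other libraries of its group. Without it the members called numbered 4 for LPS+IFNg, 2 for IL4 and 5 for TGFb, with Tnfrsf1a added in the first and the last. Tnfrsf14 was then left untested by the filter.

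**Figure D1:**
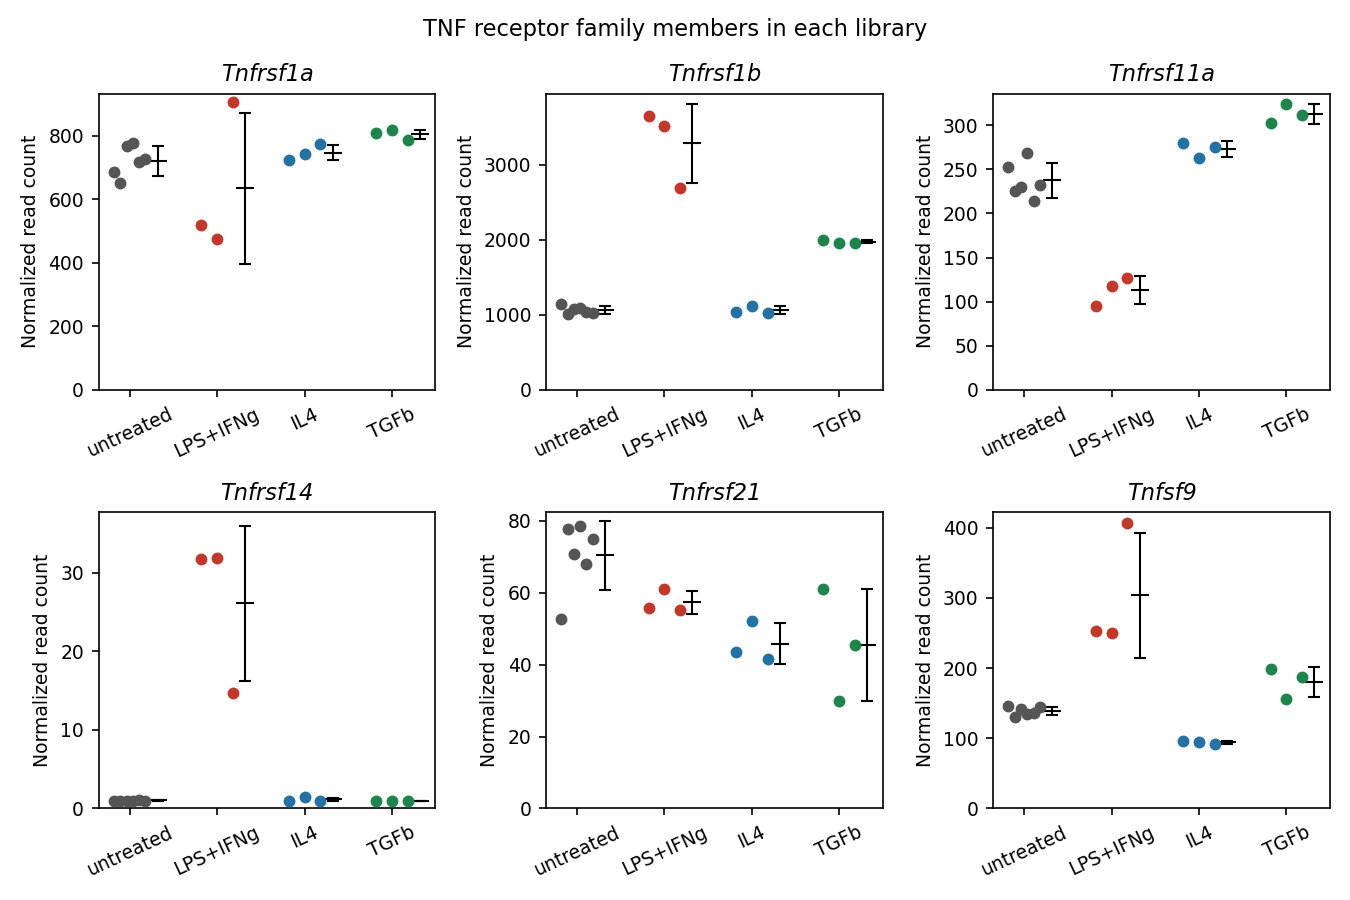
Normalized read count (vertical axis, linear, from 0) of each member in each library, by group; points are libraries and the bars beside them show the mean ± SD. Tnfrsf1b with LPS+IFNg and TGFb lies above untreated and IL4 in every library, Tnfrsf14 leaves the floor in the LPS+IFNg libraries, and LPS+IFNg replicate 3 lies apart from the other 2 for Tnfrsf1a, Tnfrsf1b, Tnfrsf14 and Tnfsf9.

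**Figure D2:**
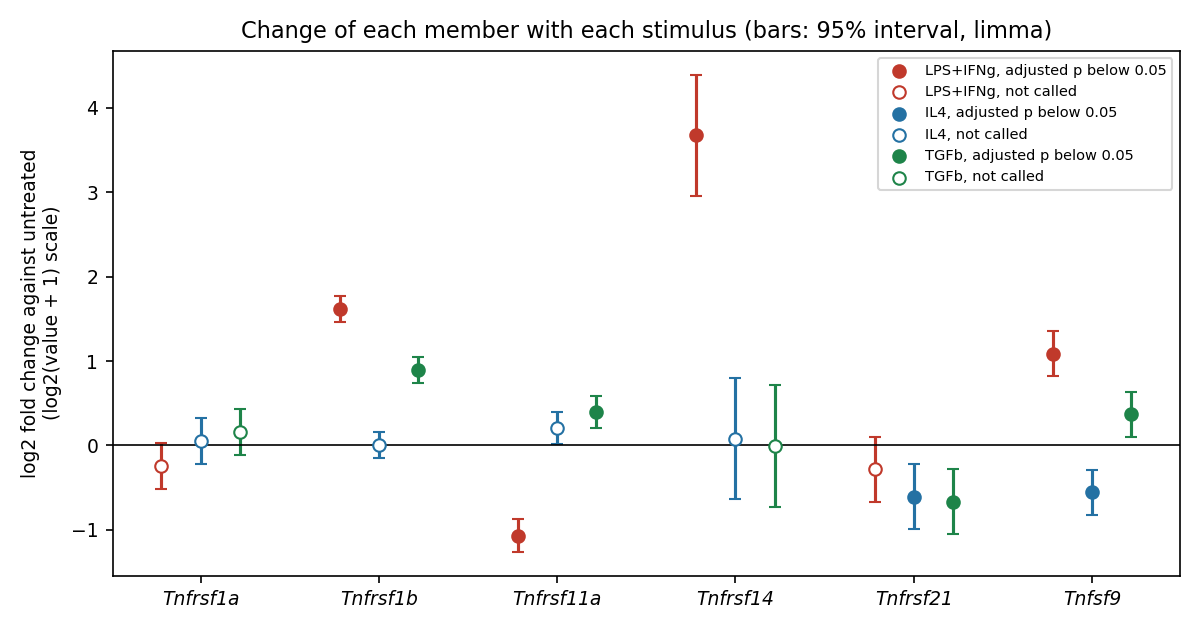
log2 fold change against untreated (vertical axis, log2(value + 1) scale) of each member with each stimulus; bars are 95% intervals from limma and filled points passed an adjusted p of 0.05. Tnfrsf1b and Tnfsf9 are above 0 with both LPS+IFNg and TGFb, and Tnfrsf11a is below 0 with LPS+IFNg and above 0 with TGFb.

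Of the 2 TNF receptor genes, the one for TNF receptor 2 rose with both LPS+IFNg and TGFb. Tnfrsf1b (chromosome 4, 145213463 to 145246870, minus strand, GENCODE M21 on GRCm38, protein coding) stood at 1007 to 1139 in untreated libraries with a median of 1053. Its LPS+IFNg libraries held 3653, 3515 and 2686, its TGFb libraries 1995, 1961 and 1957, and its IL4 libraries 1042, 1122 and 1021. The LPS+IFNg and TGFb groups lay above every untreated library and did not overlap each other, while the IL4 libraries lay among the untreated ones. The mean rose from 1061 ± 50.7 to 3285 ± 523 with LPS+IFNg, 3.10-fold (log2 fold change 1.62, SE 0.07, limma adjusted p = 7.94e-13). With TGFb it rose 1.86-fold to 1971 ± 20.6 (log2 fold change 0.89, SE 0.07, limma adjusted p = 1.17e-08). With IL4 it stood at 1062 ± 53.4, a log2 fold change of 0.00 (95% interval -0.15 to 0.15). The highest level was that of LPS+IFNg, 0.72 above TGFb on the log2 scale (adjusted p = 5.27e-07 with limma), and TGFb in turn lay 0.89 above IL4 (adjusted p = 1.07e-07 with limma).

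Tnfrsf1a (chromosome 6, 125349362 to 125362484, plus strand, protein coding), the widely expressed death domain receptor, did not pass the test with any stimulus against untreated cells. It stood at 652 to 779 in untreated libraries with a median of 721, at 725, 744 and 773 with IL4, and at 808, 817 and 788 with TGFb. The TGFb libraries lay above all untreated libraries, but the log2 fold change of 0.16 gave a limma adjusted p of 0.333. With LPS+IFNg the libraries held 521, 475 and 908, so that replicates 1 and 2 were below every other library and replicate 3 above all of them. The log2 fold change against untreated was -0.24 (SE 0.13, limma adjusted p = 0.118). Without replicate 3 the mean with LPS+IFNg was 498, 1.45-fold lower than untreated, with a log2 fold change of -0.53 and a limma adjusted p of 1.87e-07. The call also appeared with all libraries after rescaling to 1 total (-0.37, limma adjusted p = 0.0109) and with quantile normalization (-0.31, limma adjusted p = 0.0421). In the fit without replicate 3, whose spread was estimated without replicate 3, the TGFb difference of 0.16 was also called (adjusted p = 0.0168 with limma).

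In untreated cells the levels of the 2 TNF receptor genes per kilobase of exon lay within each other's spread, and with LPS+IFNg and TGFb they lay apart. Per kilobase of exon, Tnfrsf1a had 278 ± 18.5 and Tnfrsf1b 278 ± 13.3 normalized reads in untreated cells. That match depended on counting all exons of a gene. Per kilobase of the longest transcript the untreated means were 334 for Tnfrsf1a and 278 for Tnfrsf1b. With LPS+IFNg the per-kilobase level was 860.4 ± 137 for Tnfrsf1b and 245 ± 91.7 for Tnfrsf1a, and with TGFb it was 516 ± 5.40 and 311 ± 5.76. Within a library the value of Tnfrsf1b divided by that of Tnfrsf1a was 1.40 to 1.66 in untreated cells, 1.44, 1.51 and 1.32 with IL4, and 2.47, 2.40 and 2.48 with TGFb. With LPS+IFNg it was 7.02, 7.39 and 2.96. All LPS+IFNg and TGFb libraries thus had a higher ratio than any untreated or IL4 library, and LPS+IFNg replicate 3 lay nearer to the TGFb libraries than to the other libraries of its own group. The ratio is given as a description and was not tested.

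**Figure D3:**
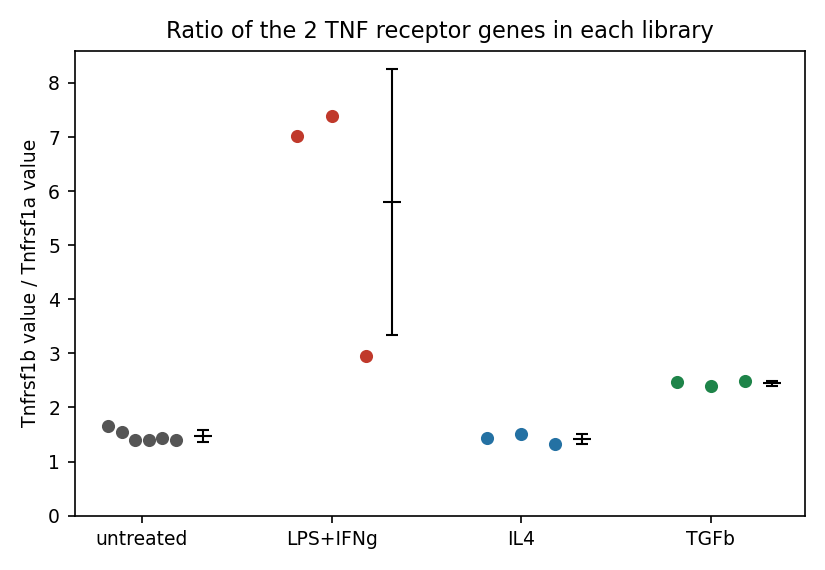
Normalized value of Tnfrsf1b divided by that of Tnfrsf1a in each library (vertical axis, no unit, linear, from 0), by group; points are libraries and bars the mean ± SD. The mean was 1.48 ± 0.105 in untreated cells, 1.42 ± 0.0945 with IL4, 2.45 ± 0.0446 with TGFb and 5.79 ± 2.46 with LPS+IFNg, where replicate 3 lay at 2.96.

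Tnfrsf11a (chromosome 1, 105780718 to 105847981, plus strand, protein coding), the gene of RANK, was the only receptor called in opposite directions by LPS+IFNg and TGFb. Untreated libraries held 215 to 269 with a median of 231. The LPS+IFNg libraries held 95.3, 118 and 126, all below every library of the other groups. The TGFb libraries held 302, 324 and 311, all above every untreated library. The mean fell from 237 ± 19.9 to 113 ± 16.1 with LPS+IFNg, 2.10-fold lower (log2 fold change -1.07, SE 0.09, limma adjusted p = 8.91e-09). It rose 1.32-fold to 312 ± 11.3 with TGFb (log2 fold change 0.40, SE 0.09, limma adjusted p = 0.00144). With IL4 the libraries held 279.7, 263 and 276 and overlapped the untreated range, with a log2 fold change of 0.20 (limma adjusted p = 0.145). The direct comparison of LPS+IFNg with TGFb gave -1.47 (limma adjusted p = 6.42e-10).

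Tnfrsf14 (chromosome 4, 154921933 to 154928563, minus strand, protein coding), the gene of HVEM, was near 0 reads outside LPS+IFNg. Of the untreated libraries 5 were at the floor and replicate 5 had 1.08, which is 1 read. All TGFb libraries were at the floor with 0 reads, and the IL4 libraries held 1, 1.41 and 1, again 1 read in all. With LPS+IFNg the values were 31.8, 31.8 and 14.7 from 41, 37 and 13 reads, so that no library of that group overlapped the rest. Adjusted for depth, the 91 reads of the LPS+IFNg group against 1 in untreated cells gave a ratio of 162.8, with a 95% interval from counting of 28.5 to 6501. The floor could hide up to 2 more untreated reads, which makes 3 with the 1 recovered, and at 3 the ratio was 54.3 (17.99 to 268.1). Against TGFb, with 0 reads recovered, the ratio was 33.9 with that group set at 3 counts over its libraries. At the 2 TGFb reads that the floor could hide it was 50.8 (13.7 to 425.7). Against IL4 the ratio was 115.5 (20.2 to 4611), or 38.5 (12.8 to 190.1) at 3 reads. These intervals cover counting error only, as several reads can come from 1 molecule. Tnfrsf14 passed the filter on low values only through the LPS+IFNg libraries, so its call in the fit over all genes is not support for the difference and no p is given. Without replicate 3 the mean with LPS+IFNg was 31.8 in place of 26.1 ± 9.88.

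Tnfrsf21 (chromosome 17, 43016555 to 43089189, plus strand, protein coding), the gene of death receptor 6, had low values that rested on few reads. Untreated libraries held 52.8 to 78.5 with a median of 72.8, from 28 to 192 reads. The IL4 libraries held 43.6, 52.2 and 41.5, the TGFb libraries 61.0, 29.9 and 45.6, and the LPS+IFNg libraries 55.8, 61.0 and 55.3. The IL4 group lay just below the lowest untreated library, and the TGFb and LPS+IFNg groups overlapped the untreated range. Tnfrsf21 was 1.54-fold lower with IL4 (log2 fold change -0.61, SE 0.18, limma adjusted p = 0.0286) and 1.55-fold lower with TGFb (-0.67, SE 0.18, limma adjusted p = 0.00601). With LPS+IFNg the log2 fold change was -0.28 (95% interval -0.67 to 0.11, limma adjusted p = 0.1999). Both calls were lost without certain single libraries. The TGFb call was lost without TGFb replicate 2 alone, whose 29.9 came from 14 reads (log2 fold change -0.40, limma adjusted p = 0.0763). That call was kept when the 3 shallowest libraries were left out together, TGFb replicate 2 and untreated replicates 1 and 4. The IL4 call was lost without untreated replicate 2 or 6 (limma adjusted p = 0.0546 and 0.0529) and without IL4 replicate 1 or 3 (0.0939 and 0.125), while the log2 fold change stayed between -0.585 and -0.539 in these 4 refits. No pair of stimuli was called different for this gene.

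Tnfsf9 (chromosome 17, 57105325 to 57107757, plus strand, protein coding), the gene of the 4-1BB ligand, was the only member called with every stimulus against untreated cells. Untreated libraries held 131 to 145 with a median of 139. The LPS+IFNg libraries held 253, 250.2 and 406, the TGFb libraries 198, 156 and 187, and the IL4 libraries 95.6, 94.6 and 91.6. No library of one group overlapped another group, and the order from high to low was LPS+IFNg, TGFb, untreated and IL4. The mean of 139 ± 5.69 rose 2.19-fold to 303 ± 89.3 with LPS+IFNg (log2 fold change 1.09, SE 0.13, limma adjusted p = 6.02e-07), or 1.82-fold to 252 without replicate 3. It rose 1.30-fold to 180.2 ± 21.8 with TGFb (0.37, SE 0.13, limma adjusted p = 0.022) and was 1.48-fold lower at 93.9 ± 2.10 with IL4 (-0.56, SE 0.13, limma adjusted p = 0.00449). The TGFb call was lost without TGFb replicate 1 (0.30, limma adjusted p = 0.119) or replicate 3 (0.34, limma adjusted p = 0.0821).

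The 3 pairs of stimuli placed Tnfsf9 and Tnfrsf1b apart in each. LPS+IFNg against IL4 called 4 members, 3 higher and 1 lower, beside 57.7% of all genes (28.8% higher and 28.8% lower), and Tnfsf9 was 3.23-fold higher with LPS+IFNg. LPS+IFNg against TGFb called 5, 3 higher and 2 lower, beside 62.6% of all genes (31.9% higher and 30.8% lower). The fifth was Tnfrsf1a at -0.40 (limma adjusted p = 0.0262), whose libraries overlapped between the 2 groups. That call was lost in 6 of the refits, among them those without LPS+IFNg replicate 1 (-0.29, limma adjusted p = 0.125) or replicate 2 (-0.23, limma adjusted p = 0.174). IL4 against TGFb called 2, both lower with IL4, beside 39.7% of all genes (20.7% higher and 19% lower). They were Tnfrsf1b at -0.89 and Tnfsf9 at -0.93 (limma adjusted p = 5.19e-05). In these 3 comparisons, in the same order, the libraries of the groups did not overlap for 5, 4 and 4 members, beside 61.8%, 66.4% and 55.8% of all genes. Tnfrsf11a stood 0.20 lower with IL4 than with TGFb on the log2 scale (limma adjusted p = 0.152).

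The 618 bases at the start of Tnfsf9 overlap Gm11110, a long non-coding RNA gene on the opposite strand. Whether counting used strand is not given in the sources used here, and reads of the pair cannot be told apart there. Gm11110 stood at 26.3 ± 4.88 in untreated cells, 50.9 ± 7.95 with LPS+IFNg, 27.6 ± 1.02 with IL4 and 39.5 ± 1.07 with TGFb. Its part in the values of Tnfsf9 was not tested.

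Compared per kilobase of exon, Tnfrsf1a, Tnfrsf1b and Tnfsf9 were the 3 most abundant members in every group. In untreated cells Tnfsf9 had 107 ± 4.41 normalized reads per kilobase, Tnfrsf11a 39.7 ± 3.32 and Tnfrsf21 17.1 ± 2.32. Tnfrsf14, at 0.704 in untreated cells, reached 18.1 ± 6.87 with LPS+IFNg, beside 18.9 ± 2.69 for Tnfrsf11a and 13.97 ± 0.772 for Tnfrsf21. Those 3 receptors, which spanned a wide range in untreated cells, thus lay close together after LPS+IFNg. The order of members was the same with the length of the longest transcript.

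The ligand and receptor partners of the members were taken next. Tnfrsf9 (4-1BB), the receptor of Tnfsf9, moved in the same direction as its ligand under 2 stimuli. It rose from 56.5 ± 4.39 to 389.9 ± 50.8 with LPS+IFNg (log2 fold change 2.76, limma adjusted p = 4.81e-12) and to 96.9 ± 10.4 with TGFb (0.76, limma adjusted p = 1.99e-04). With IL4 it stood at 51.3 ± 13.6 (-0.17, limma adjusted p = 0.481). Lta, the gene of lymphotoxin alpha and a ligand of Tnfrsf1a, Tnfrsf1b and Tnfrsf14, was at 1.37 ± 0.721 in untreated cells and 15.8 ± 4.97 with LPS+IFNg. Lta, like Fas and Traf1 below, passed the filter only through the LPS+IFNg libraries. Tnfsf14, the gene of LIGHT and the other ligand of Tnfrsf14, stood at 18.3 ± 7.31 in untreated cells and 22.6 ± 15.8 with LPS+IFNg (limma adjusted p = 0.683), and fell to 5.39 ± 0.935 with TGFb (-1.52, limma adjusted p = 0.00153). The gene of TNF itself had its largest change with LPS+IFNg, where Tnf reached 3743 ± 1141 (log2 fold change 4.36, limma adjusted p = 4.87e-16) and 3088 without replicate 3. It fell with IL4, from 176 ± 12.01 to 91.6 ± 2.81 (-0.93, limma adjusted p = 1.91e-05), and rose with TGFb to 259 ± 11.2 (0.56, limma adjusted p = 7.44e-04). Tnfsf11, the ligand of Tnfrsf11a, was not analysed here.

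Of 23 other TNF receptor genes 11 were in the table. LPS+IFNg raised 4 of them and lowered 0 (median log2 fold change 0.11), TGFb raised 6 and lowered 1 (0.74), and IL4 raised 1 and lowered 0 (0.05). Beside these stand 58.9% of all genes called with LPS+IFNg, 47.5% with TGFb and 17.2% with IL4. The same shares hold for every list below. With LPS+IFNg the death receptor gene Fas went from 1.10 ± 0.170 to 167 ± 99.9 (109 without replicate 3). Fas is counted among the 4 but had to differ once tested, so its call is not support. The TGFb median of 0.74 is the value of Fas itself, which was near the floor and not called there (limma adjusted p = 0.0944). With TGFb Tnfrsf13b, which encodes the BAFF and APRIL receptor TACI, went from 5.72 ± 2.17 to 14.9 ± 1.93. Tnfrsf13b is counted among the 6, but it would not have passed the filter on low values without the TGFb libraries. Its call is therefore not support for the difference. Cd40 was the only gene of this list called with IL4, where it rose from 68.9 ± 4.60 to 148 ± 8.95. Its largest rise was with LPS+IFNg, to 1273 ± 817 (802 without replicate 3), and it also rose with TGFb, to 116 ± 10.5. Among 5 of 16 other ligand genes, LPS+IFNg raised 3 and lowered 1 (median 2.82), TGFb raised 3 and lowered 1 (0.56), and IL4 raised 0 and lowered 1 (0.07). The median of 2.82 is the value of Lta itself. Lta is also counted among the 3 raised with LPS+IFNg but had to differ once tested, so neither is support. Tnfsf13, the gene of APRIL, moved in opposite directions, from 98.3 ± 4.98 to 26.4 ± 11.9 with LPS+IFNg and to 244 ± 32.3 with TGFb. Tnfsf13b, the gene of BAFF, rose with both, from 4.23 ± 2.59 to 111 ± 33.9 (91.9 without replicate 3) and to 18.6 ± 2.63.

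Downstream of the receptors stand the adaptor genes. Of 24 TRAF and receptor adaptor genes, all in the table, 12 rose, 1 fell and 11 were not called with LPS+IFNg (median 0.23), beside 58.9% of all genes called in that comparison. With TGFb 9 rose and 3 fell (0.15), and with IL4 1 rose and 2 fell (-0.02). The adaptor gene Traf1 went from 1.83 ± 1.02 to 121 ± 33.8 with LPS+IFNg. Traf1 is counted among the 12 but had to differ once tested, so its call is not support. Ubiquitin ligase genes among those that rose were Birc3, from 86.3 ± 11.6 to 602 ± 193, Rnf31 from 209 ± 16.4 to 633 ± 85.6 and Birc2 from 113 ± 7.09 to 241 ± 15.2. Map3k5, the gene of the stress kinase ASK1, fell with IL4 from 95.5 ± 6.52 to 30.7 ± 8.24 and rose with TGFb to 205 ± 5.39. Of 10 genes of the death arm, LPS+IFNg raised 6 and lowered 0 (median 0.24), TGFb raised 3 and lowered 2 (0.11), and IL4 raised 0 and lowered 2 (-0.02). These counts were near the shares of all genes called, 58.9% with LPS+IFNg, 47.5% with TGFb and 17.2% with IL4. The death arm genes that rose with LPS+IFNg included both an effector and a brake. Mlkl, the executor of necroptosis, rose from 267 ± 29.8 to 1095 ± 190, and Cflar, an inhibitor of caspase-8, from 825 ± 38.8 to 3397 ± 717.

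Of 10 feedback inhibitor genes, LPS+IFNg raised 7 and lowered 1 (median 1.36), TGFb raised 5 and lowered 0 (0.29), and IL4 raised 2 and lowered 3 (0.06). Of all genes 58.9% were called with LPS+IFNg, 47.5% with TGFb and 17.2% with IL4. The NF-kB inhibitor gene Nfkbie rose from 97.1 ± 9.46 to 1162 ± 192 with LPS+IFNg and to 206 ± 19.2 with TGFb, and Nfkbib rose from 186 ± 31.9 to 711 ± 54.4 with LPS+IFNg. The gene that fell was Otulin, a deubiquitinase of linear chains, from 477 ± 13.5 to 267 ± 25.6, and it rose to 601 ± 23.2 with IL4. Of 6 genes linked to the shedding of TNF and its receptors 4 were in the table, and LPS+IFNg raised 3 and lowered 1 (median 0.98). Adam17, the protease that releases TNF and both TNF receptors from the cell surface, rose from 1658 ± 97.9 to 3179 ± 209, and its partner gene Rhbdf2 rose from 332 ± 33.4 to 678 ± 57.2 with LPS+IFNg and to 693 ± 26.8 with TGFb. Erap1, which binds TNF receptor 1, rose from 419.7 ± 19.9 to 1695 ± 138 with LPS+IFNg. IL4 called 0 of these 4 genes with limma, and their log2 fold changes with IL4 had a median of 0.06. TGFb raised 2 and lowered 1 (0.12).

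Genes known as targets of RANK in osteoclasts were set beside Tnfrsf11a. Of 8 such genes 5 were in the table, and LPS+IFNg raised 0 and lowered 2 (median -0.66), TGFb raised 2 and lowered 1 (0.52), and IL4 raised 1 and lowered 0 (-0.18). The shares of all genes called were 58.9% with LPS+IFNg, 47.5% with TGFb and 17.2% with IL4. Ctsk, the gene of the bone-resorbing protease cathepsin K, stood at 41552 in untreated cells, fell to 23771 with LPS+IFNg and rose to 75386 with TGFb. Nfatc1, a transcription factor downstream of RANK, went from 400.2 ± 21.2 to 350.5 ± 39.7 with LPS+IFNg (limma adjusted p = 0.0233) and to 574 ± 12.8 with TGFb (limma adjusted p = 6.99e-06). The proton pump subunit gene Atp6v0d2 rose with IL4 from 202 ± 31.1 to 441 ± 56.9, a stimulus with which Tnfrsf11a was not called. Mmp9, a matrix protease gene, stood at 13.5 ± 6.24 in untreated cells and fell to 5.81 ± 3.22 with TGFb.

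**Figure D4:**
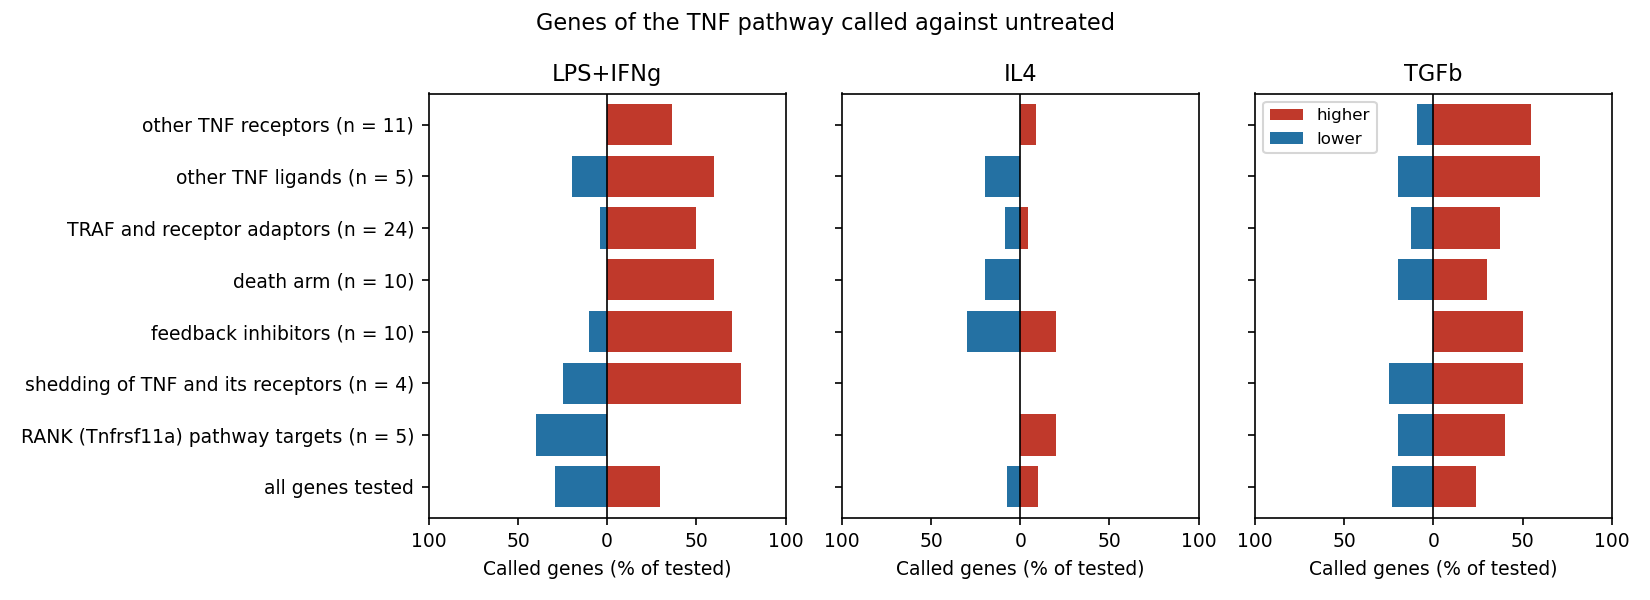
Share of the tested genes of each list called higher (right of 0) or lower (left of 0) against untreated (horizontal axis, % of genes tested, linear), for LPS+IFNg, IL4 and TGFb, with the share over all genes tested in the bottom bar. With LPS+IFNg 7 of 10 feedback inhibitors and 12 of 24 adaptors were higher beside 29.5% of all genes, and with TGFb 6 of 11 other receptors were higher beside 24.1% of all genes. The 12 include Traf1 and the 6 include Tnfrsf13b, which would not have passed the filter without the group where they were higher.

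Other genes were ranked by how closely their log2(value + 1) followed each member over the 15 libraries, by Pearson correlation among 9380 genes. The libraries share groups and depth, so these values are descriptions. Tnfrsf1b was most like Slc25a37, a mitochondrial iron importer gene (r = 0.988), which had means of 284 in untreated cells, 1141 with LPS+IFNg, 253 with IL4 and 613 with TGFb. Pxn (0.98) and Ncf1, a subunit of the phagocyte oxidase (0.977), came next. For Tnfrsf11a they were Lamtor1 (0.981), Acaa2 (0.979) and Inppl1 (0.978). For Tnfrsf14 they were Lcn2 (0.993), which was at the floor in every group but LPS+IFNg, Rtp4 (0.992) and Rela (0.991), the gene of an NF-kB subunit. Tnfsf9 was most like Slc30a1, a zinc exporter gene (0.976), Rhoc (0.97) and Procr (0.964). For Tnfrsf1a, Prickle3 (0.92) was among the closest. The closest genes to Tnfrsf21 were Rasgrp2 (0.881), Fam118a (0.847) and Syne3 (0.841). Among the members themselves the correlation was 0.841 between Tnfrsf1b and Tnfsf9 and -0.942 between Tnfrsf11a and Tnfrsf14.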

How the data were processed

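Per the labels' protocols, TRIZOL-extracted total RNA went into the Illumina TruSeq RNA preparation. TopHat2 2.0.3, Partek 6.6, R 3.0.2 and DESeq2 and the build mm10 are named in the submitters' processing notes. The annotation, the counting rule and the use of strand are not given in the sources used here. The deposited values are a normalized signal. Judged from the values, each library's read counts had been divided by its own factor, with anything under 1 set to 1, a floor that can hide 2 reads at most. In units of 1 read, 100% of values above the floor were whole within a tolerance of 0.01, and these recovered reads served for depth, for ratios near 0 and for the count tests. No gene of the table had a highest value under 11.1. All 15 value columns were used and 0 were left out.

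Groups came from the stimulation in the labels, and replicate numbers follow accession order and only name libraries. Genes reaching 10 in 3 or more libraries entered limma 3.58.1 (R 4.3.3, empirical Bayes with a trend), run on log2(value + 1) as 1 fit with 6 contrasts and Benjamini-Hochberg adjustment within a contrast. edgeR 4.0.16 and DESeq2 1.42.0 on recovered reads were alternatives, beside log2(value + 5), no filter, a minimum of 50, rescaling to 1 total, quantile normalization, only the 2 groups compared, leaving out the 3 shallowest libraries and leaving out each library. The fit was tested on simulated data. The members and lists were chosen with earlier results of these data known. From each list the rule names called genes with a log2 fold change of at least 1 against untreated, up to 4 per list and stimulus, and the partners of members, and for each member the 3 most correlated genes with a group mean of at least 50. Adam17, Otulin, Ctsk, Nfatc1 and Gm11110 were named after their values were seen, and some genes of the rule are not described. Positions and exon lengths come from GENCODE M21. Intervals of read ratios are exact at 95%.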

Additional observations from a re-analysis of the deposited data

Results flagged for a closer look

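In 5 of the 49 groups of 6 untreated libraries tested, 1 library lay far from the others, where chance alone gives about 1 in 20. Among the members this was Tnfrsf14, at 1.08 in untreated replicate 5 and at 1 in the others, which is a difference of 1 read. Fas stood at 1.44 in replicate 2, with the nearest other library at 1.10, and each of these values is 1 read. Lta stood at 2.80 in replicate 4, with the nearest other at 1.44, again 1 read each. Their gaps reflect only the factor of each library. Values of Tnfrsf14, Fas and Lta were at the floor or at 1 read, so the rate of 1 in 20 does not hold for them. Rhbdf2 was lowest in replicate 4 at 266, with the others between 336 and 356. Rasgrp2, the gene most like Tnfrsf21, was highest in replicate 4 at 58.8, with the nearest other at 51.6. Untreated replicate 4 had the fewest reads of all libraries, 2682564. The part of depth in the values of Rhbdf2 and Rasgrp2 was not tested.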

How the results depend on the processing

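The 36 results for single members (6 genes in 6 comparisons), of which 21 were called, were recomputed 837 times. Of the 492 recomputations of called results 0 reversed and 13 lost the call, in the 4 results named above for Tnfrsf21, Tnfsf9 and Tnfrsf1a. The called results include those of Tnfrsf14 with LPS+IFNg, which had to differ once tested, so its recomputations are not support. Refits that gave Tnfrsf14 no value are left out of these numbers and not counted as lost. The number of members called ranged from 1 to 2 for IL4 against untreated and from 3 to 5 for LPS+IFNg against TGFb when each library was left out. Reversals were limited to differences that were not called. Against untreated, IL4 gave -0.012 for Tnfrsf1a rescaled to 1 total, and for Tnfrsf1b -0.0647 rescaled, -0.0397 with quantile normalization and -0.0072 with edgeR, and -0.19 for Tnfrsf14 with DESeq2. For Tnfrsf21, IL4 against TGFb gave -0.15 with edgeR, -0.13 with DESeq2 and -0.21 without the 3 shallowest libraries, and -0.21 to 0.30 when each library was left out. Leaving out each library gave -0.0397 to 0.0282 for Tnfrsf1b and -0.0092 to 0.13 for Tnfrsf14, IL4 against untreated. With IL4 limma called 1917 genes, or 1130 without IL4 replicate 2. Tnfrsf14 got no value with a minimum of 50 or without an LPS+IFNg library, since too few libraries then passed the filter. Its 13 to 41 reads per library and the 14 of Tnfrsf21 limit the precision of both. No paired analysis was possible because the labels give no shared replicate numbers.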
